A study of Homo sapiens with 15 samples.

Results

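The 9 genes described here, CDKN1A, BTG2, SESN1, MDM2, FAS, BBC3, BAX, TP53I3 and GDF15, are well-known transcriptional targets of the tumour suppressor p53. They were taken by name from the 60675 genes of an RNA-seq experiment in the human fibrosarcoma line HT1080, with no threshold on any measured value. All 9 were among the 19535 genes with enough counts to be tested. The experiment compares catalytic mutants of the lysine deacetylases KDAC6 (HDAC6) and KDAC8 (HDAC8) with cells that received inhibitors of these enzymes. There were 15 libraries, 3 biological replicates in each of 5 groups, and every group was treated with an inhibitor. In 6CD1m cells (genotype HDAC6H216A) the first catalytic domain of KDAC6 was mutated, and in 6CD2m cells (genotype HDAC6H611A) the second was. Both lines were kept in 1 μM Tubastatin A, a KDAC6 inhibitor, for 2 days. In 8CDm cells (genotype HDAC8H143A) the active site of KDAC8 was mutated, and these cells were kept in 5 μM PCI-34051, a KDAC8 inhibitor, for 2 days. The remaining groups were WT cells kept for 14 days in either 1 μM Tubastatin A or 5 μM PCI-34051. Untreated cells were not analysed here. Any comparison of a mutant line with WT cells changed the line and the duration of treatment together, so that these cannot be told apart, and whether each mutant line is 1 clone is not given in the sources used here.

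p53 is held at a low level by MDM2, a ubiquitin ligase that is itself encoded by a p53 target, so that the activity of p53 raises its own inhibitor. Active p53 binds DNA as a tetramer at pairs of a short motif, the half-sites, and raises genes that stop the cell cycle, trigger apoptosis or adjust metabolism. CDKN1A encodes p21, an inhibitor of cyclin-dependent kinases that acts through the DREAM complex to repress genes of cell division. CDKN1A is also known for rising after treatment with broad deacetylase inhibitors without p53, through GC boxes in its promoter that bind factors of the Sp1 family. BTG2 encodes an antiproliferative cofactor of mRNA deadenylation, and SESN1 a sestrin that restrains growth signalling. FAS is a death receptor, BBC3 encodes the BH3-only protein PUMA, BAX a pore-forming protein of the mitochondrial outer membrane, and TP53I3 a quinone oxidoreductase. GDF15 is a secreted stress cytokine.

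The sequences around the start sites show which of the genes hold such elements close to the start. RefSeq promoter windows (GRCh38.p14, 250 bases before to 50 after a start site) were found for all 9 genes, in 16 windows. They were searched for a pair of adjoining p53 half-sites, 20 bases in all, with at most 2 mismatches to the consensus and the central C and G of each kept. Such a pair lay in windows of 2 of the 9 genes, MDM2 and FAS, against 0.361% of the 27167 genes with a window. With 3 mismatches allowed, 4 of the 9 genes had a pair, SESN1 and GDF15 in addition, against 1.36% of all genes. The absence of a pair says only that these letters are not in this window. The pairs of 3 genes are shown because MDM2, FAS and SESN1 had the 3 largest fold changes between the KDAC6 mutant lines. The pair is in capitals with 5 flanking bases on each side, read on the strand of the gene.
MDM2, chr12:68808923-68808942, plus strand: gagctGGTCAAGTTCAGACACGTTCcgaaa
FAS, chr10:88991309-88991328, plus strand: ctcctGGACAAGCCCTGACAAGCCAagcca
SESN1, chr6:109009018-109009037, minus strand: cgtctGGACAAGTCTCCACAAGTCAgaaat

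For MDM2, FAS and SESN1 alike the pair lies before an internal start site, within the annotated span of the gene. FAS begins at 88990582, and SESN1, on the minus strand, at 109094819. All 250 bases before the FAS start site are annotated exon. For an MDM2 window with the pair, the stretch that carries no annotated exon, 235 bases from chr12:68808767-68809001 on the plus strand, is printed with the pair in capitals. The CDKN1A window had no p53 pair but 4 GC boxes (GGGCGG on either strand, overlaps counted), a number reached by 9.02% of the 34943 windows. It was not the highest of the 9 genes, since the windows of SESN1 had 8, 5 and 1, and that of BTG2 had 3. A GC box of any number lay in 44.9% of all windows and in windows of 7 of the 9 genes. The first share is per window and the second per gene, so they cannot be compared. The stretch of the CDKN1A window that carries no annotated exon, 194 bases from chr6:36678464-36678657 on the plus strand, holds 2 of the 4, shown in capitals.
MDM2: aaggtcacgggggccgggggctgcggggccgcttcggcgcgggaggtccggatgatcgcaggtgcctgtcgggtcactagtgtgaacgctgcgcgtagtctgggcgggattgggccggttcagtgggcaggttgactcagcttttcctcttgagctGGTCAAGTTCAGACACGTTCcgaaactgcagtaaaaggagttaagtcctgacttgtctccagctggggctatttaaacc
CDKN1A: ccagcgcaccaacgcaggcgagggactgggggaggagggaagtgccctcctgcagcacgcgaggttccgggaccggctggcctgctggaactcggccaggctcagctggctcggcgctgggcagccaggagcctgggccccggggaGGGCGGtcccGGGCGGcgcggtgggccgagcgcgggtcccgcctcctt

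The libraries held 10932455 to 19983710 counted reads, with the lowest totals in 6CD1m cells (10932455 to 14068244). Replicate 1 of the 6CD1m group and replicate 1 of both WT groups differed most from the other replicates of their group, with a chi-square per gene of 14.9 to 41.1 against 2.54 to 9.29 for all other pairs. Calls that changed without these 3 libraries are given beside the results, an alternative tried once the data had been seen. Of 6 mesenchymal markers, VIM (2809 to 4887 CPM), FN1, MMP14, CDH2 and CAV1 were high in every library and THY1 was at most 1.68 CPM. The epithelial markers EPCAM, CDH1, KRT5 and KRT14 and the blood markers PTPRC and HBB had at most 2 counts in any library, and the neural markers SYP and GFAP at most 18 and 43. CDKN2A, which is deleted in HT1080 cells, had at most 1 count in 13 libraries, 31 counts in 1 library of 6CD2m cells and 57 in 1 library of 8CDm cells, and the source of these reads was not tested. CDKN2B had 0 counts in every library. The targeted enzymes carry amino acid changes, so the level of their mRNA does not identify the lines.

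Levels are given as CPM, counts scaled to a common library size after TMM normalisation, and levels of different genes are compared per kilobase of annotated exon. On that scale GDF15 was the most abundant of the 9 (186 CPM per kb over the 15 libraries), followed by CDKN1A (62.3), BAX (37.9) and MDM2 (34.7). BBC3 (8.79), BTG2 (8.14), TP53I3 (7.38), FAS (5.46) and SESN1 (4.01) were lower. The highest library exceeded the lowest by 5.91-fold for FAS and 3.61-fold for MDM2, but by 1.38-fold for BAX and 1.62-fold for TP53I3. In bulk RNA, a change in the number of cells that express a gene and a change in each cell cannot be told apart.

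CDKN1A (ENSG00000124762, GRCh38 chromosome 6 from 36676460 to 36687339, plus strand) was lowest in 6CD1m cells, with 123, 123 and 133 CPM in the 3 libraries. It had 205, 227 and 211 CPM in 6CD2m cells and 214, 224 and 220 in 8CDm cells. The libraries of the KDAC6 lines, which had the same inhibitor for the same time, did not overlap. WT cells had 193, 165 and 189 CPM on Tubastatin A and 245, 178 and 200 on PCI-34051. WT cells on either inhibitor lay above 6CD1m cells in every library, and the groups of WT cells on PCI-34051, 6CD2m and 8CDm cells overlapped in the order of their means.

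BTG2 (ENSG00000159388, chromosome 1 from 203305491 to 203309602, plus strand) had 13.6, 13.5 and 17.3 CPM in 6CD1m cells and 23.1, 32.1 and 31.3 in 6CD2m cells. It had 31.9, 33.1 and 33.6 CPM in 8CDm cells. WT cells had 17.2, 15.2 and 16.9 CPM on Tubastatin A and 23.5, 16.8 and 17.7 on PCI-34051. All libraries of 6CD2m and 8CDm cells were therefore above the WT cells on the same inhibitor.

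SESN1 (ENSG00000080546, chromosome 6 from 108986437 to 109094819, minus strand) was high in 1 group alone. Its 6CD2m libraries had 32.6, 33.4 and 32.1 CPM, while no other library exceeded 23.9 CPM. 8CDm cells had 20.1, 19.2 and 19.7 CPM and 6CD1m cells 12.7, 13.3 and 20.01. WT cells had 19.5, 18.5 and 14.0 CPM on Tubastatin A and 23.9, 13.2 and 15.8 on PCI-34051.

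MDM2 (ENSG00000135679, chromosome 12 from 68808176 to 68850686, plus strand) separated the groups most clearly. It had 819, 830 and 860 CPM in 6CD2m cells and 682, 647 and 647 in 8CDm cells. 6CD1m cells had 254, 257 and 283 CPM, WT cells on Tubastatin A 261, 245 and 238, and WT cells on PCI-34051 332, 265 and 293. Every library of 6CD2m cells was above every library of 8CDm cells, which were all above the other 9, and the 3 lower groups overlapped in the order of their means.

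FAS (ENSG00000026103, chromosome 10 from 88990582 to 89015785, plus strand) was likewise highest in 6CD2m cells and next highest in 8CDm cells, at a lower level. Its 6CD2m libraries had 43.9, 46.4 and 44.2 CPM and its 8CDm libraries 29.2, 28.8 and 29.6. 6CD1m cells had 10.9, 14.3 and 16.7 CPM, WT cells on Tubastatin A 20.1, 15.6 and 14.2, and WT cells on PCI-34051 14.99, 7.84 and 11.6. The 3 lower groups again overlapped.

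The other pro-apoptotic targets varied less. BBC3 (ENSG00000105327, chromosome 19 from 47220822 to 47232766, minus strand) had 36.6, 33.5 and 29.6 CPM in 6CD2m cells and 28.4, 37.4 and 32.9 in 8CDm cells, against 19.02, 20.7 and 21.2 in WT cells on Tubastatin A and 21.3, 29.3 and 30.1 in WT cells on PCI-34051. In 6CD1m cells it had 39.1 CPM in replicate 1, which stands apart as described above, and 20.8 and 19.6 in the others. BAX (ENSG00000087088, chromosome 19 from 48954815 to 48961798, plus strand) lay between 88.4 and 122 CPM in all 15 libraries and all neighbouring groups overlapped. TP53I3 (ENSG00000115129, chromosome 2 from 24077433 to 24085861, minus strand) lay between 13.7 and 22.1 CPM, again with overlap between all neighbouring groups. The highest BBC3, BAX and TP53I3 values of all libraries were in replicate 1 of 6CD1m cells.

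GDF15 (ENSG00000130513, chromosome 19 from 18374731 to 18389176, plus strand) had an order of its own. It was highest in WT cells on PCI-34051, with 547, 492 and 537 CPM, and lowest in 6CD1m cells, with 238, 228 and 195. It had 461, 487 and 417 CPM in 6CD2m cells, 364, 399 and 443 in 8CDm cells, and 335, 311 and 378 in WT cells on Tubastatin A.

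**Figure D1:**
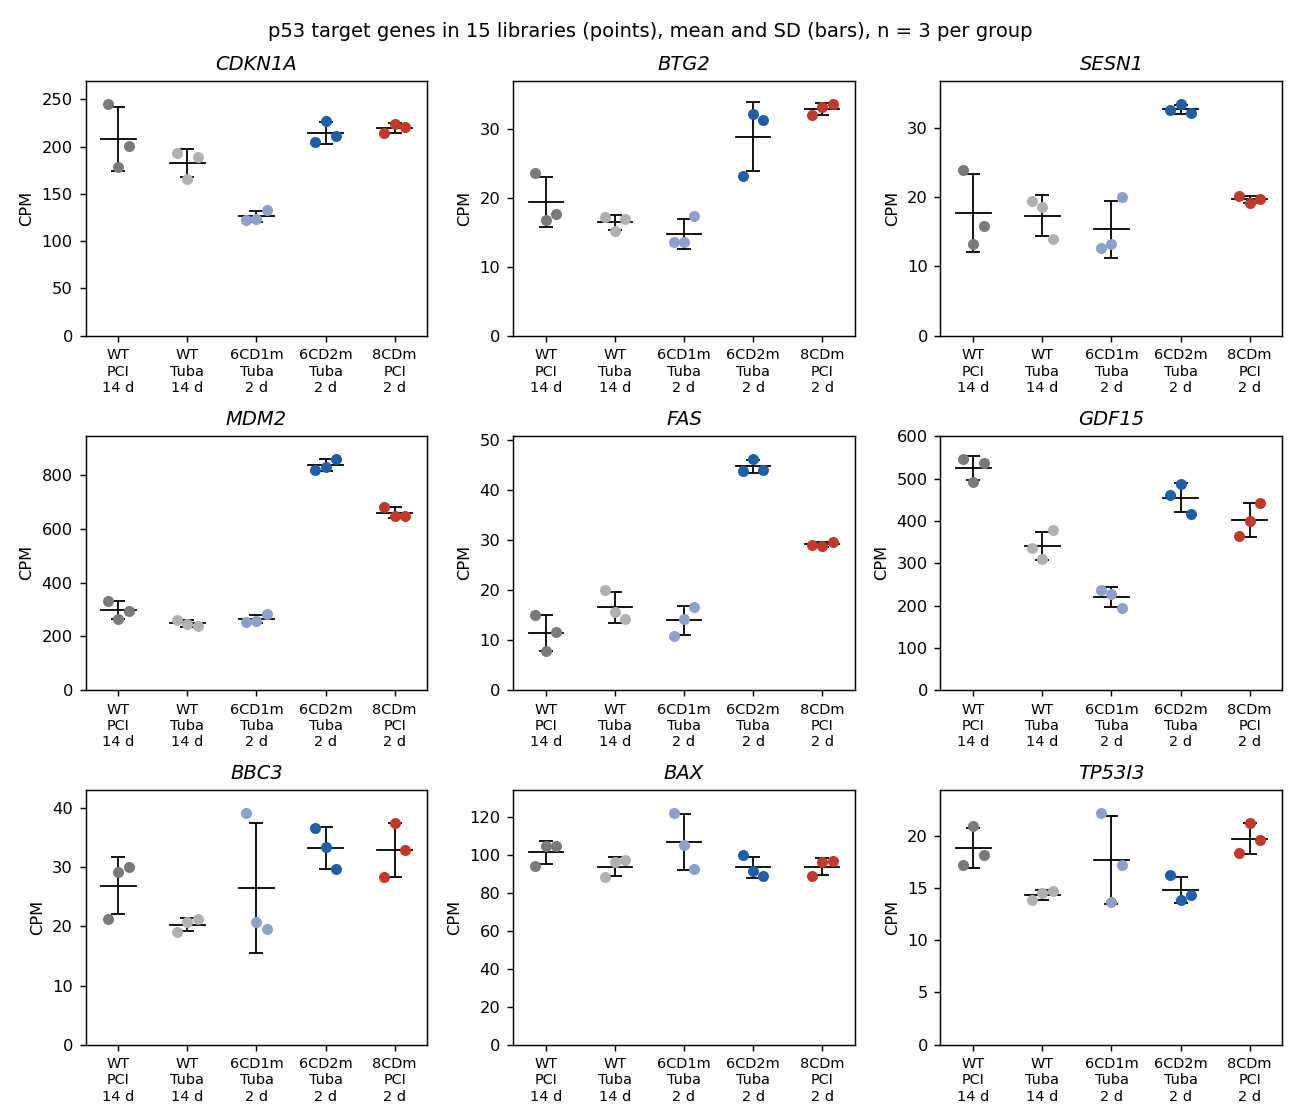
Level of the 9 genes in CPM (linear axes from 0) in each of the 15 libraries, shown as points in order of replicate, with the mean and SD of the 3 libraries of each group; PCI is PCI-34051, Tuba is Tubastatin A and d is days. MDM2 reached 819 to 860 CPM in 6CD2m cells and at most 332 in WT and 6CD1m cells, whereas BAX lay between 88.4 and 122 CPM throughout.

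By their labels the KDAC6 lines differed in the mutated domain alone, since inhibitor, dose and duration were the same. Of the 9 genes, 6 were higher in 6CD2m than in 6CD1m cells and 0 lower at the false discovery rate of 0.001, where 13.2% of all genes tested differed and 6.65% were higher. The 6 genes were also those whose libraries did not overlap, which 26.2% of all genes did in this direction. The median log2 fold change of the 9 genes was 0.96, against -0.05 for all genes tested. FAS (log2 fold change 1.68, standard error 0.20, edgeR adjusted p = 1.3e-05) and MDM2 (1.66, standard error 0.09, edgeR adjusted p = 6.7e-09) rose by about the same amount. SESN1 rose by 1.09 on the log2 scale (standard error 0.21, edgeR adjusted p = 0.00073), GDF15 by 1.05 (standard error 0.11, edgeR adjusted p = 3.8e-06) and BTG2 by 0.96 (standard error 0.15, edgeR adjusted p = 0.00021). CDKN1A rose by 0.76 (standard error 0.11, edgeR adjusted p = 6.3e-05), which is a 1.70-fold difference. BBC3 (0.33, 95% interval -0.13 to 0.79), BAX (-0.19, -0.41 to 0.02) and TP53I3 (-0.25, -0.57 to 0.07) did not pass the test.
CDKN1A, MDM2, FAS and GDF15 passed the test without any single library. SESN1 did not pass it without 5 of the 6 libraries in turn (edgeR adjusted p of up to 0.0053), all but replicate 3 of 6CD1m cells, nor with the replicate number as a block (edgeR adjusted p = 0.0020). BTG2 did not pass it without replicate 1 or 2 of 6CD1m cells or replicate 2 or 3 of 6CD2m cells (edgeR adjusted p of up to 0.0018). When only these 6 libraries were fitted, neither SESN1 (edgeR adjusted p = 0.0013) nor BTG2 (edgeR adjusted p = 0.0024) passed. BBC3 was called without the 3 libraries that stand apart (0.72, edgeR adjusted p = 5.6e-05).

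In 6CD2m cells 3 of the 9 genes were higher than in WT cells after 14 days of Tubastatin A and 0 lower, where 11.8% of all genes differed and 4.61% were higher. The libraries of 7 of the 9 did not overlap in this direction, against 23.6% of all genes. MDM2 rose by 1.75 on the log2 scale (standard error 0.09, edgeR adjusted p = 2.9e-09), FAS by 1.43 (standard error 0.19, edgeR adjusted p = 4.3e-05) and BTG2 by 0.81 (standard error 0.15, edgeR adjusted p = 0.00078). SESN1 had a log2 fold change of 0.92 (95% interval 0.48 to 1.35, edgeR adjusted p = 0.0026) and BBC3 of 0.71 (0.25 to 1.18, edgeR adjusted p = 0.020). GDF15 (0.42, edgeR adjusted p = 0.0077) and CDKN1A (0.23, edgeR adjusted p = 0.11) were also above WT cells in every library without passing the test. BAX (-0.01, 95% interval -0.22 to 0.21) and TP53I3 (0.05, -0.27 to 0.36) overlapped.
MDM2 and FAS passed the test without any single library, but BTG2 only when replicate 1 of 6CD2m cells was left out (edgeR adjusted p of up to 0.0061 otherwise), and BTG2 did not pass it with the replicate block (edgeR adjusted p = 0.0024). BBC3 (0.66, edgeR adjusted p = 0.00010) and SESN1 (1.01, edgeR adjusted p = 9.5e-06) were called without the 3 libraries that stand apart. SESN1 passed it in 9 of 11 alternative analyses. With offsets for GC content, described below, 6 of the 9 genes were higher.

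In 8CDm cells, 2 of the 9 genes were higher than in WT cells on PCI-34051 for 14 days and 0 lower, where 11% of all genes differed and 4.69% were higher. The libraries of 3 genes did not overlap in this direction, against 23.8% of all genes. FAS rose by 1.34 on the log2 scale (standard error 0.20, edgeR adjusted p = 0.00012) and MDM2 by 1.15 (standard error 0.09, edgeR adjusted p = 2.4e-07). BTG2 narrowly missed the threshold (0.76 on the log2 scale, standard error 0.15, edgeR adjusted p = 0.0012) and passed it when replicate 1 of WT cells on PCI-34051 was left out (edgeR adjusted p = 0.00024), as it did without all 3 libraries that stand apart (0.93, edgeR adjusted p = 7.4e-06). FAS did not pass it without replicate 3 of the same group (edgeR adjusted p = 0.0010). When only the 6 libraries of the comparison were fitted, MDM2 alone passed (log2 fold change of FAS 1.36, edgeR adjusted p = 0.0016), and with the replicate block added to that fit MDM2 did not pass either (1.17, edgeR adjusted p = 0.0017). CDKN1A (0.08, 95% interval -0.15 to 0.31), SESN1 (0.15, -0.28 to 0.58), BBC3 (0.29, -0.16 to 0.75), BAX (-0.11, -0.32 to 0.10) and TP53I3 (0.07, -0.24 to 0.38) overlapped with WT cells. The median protein-coding gene of chromosome 6, which holds CDKN1A and SESN1, had a log2 fold change of -0.34 here. GDF15 was below WT cells in every library (-0.39, 95% interval -0.62 to -0.16, edgeR adjusted p = 0.012).

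**Figure D2:**
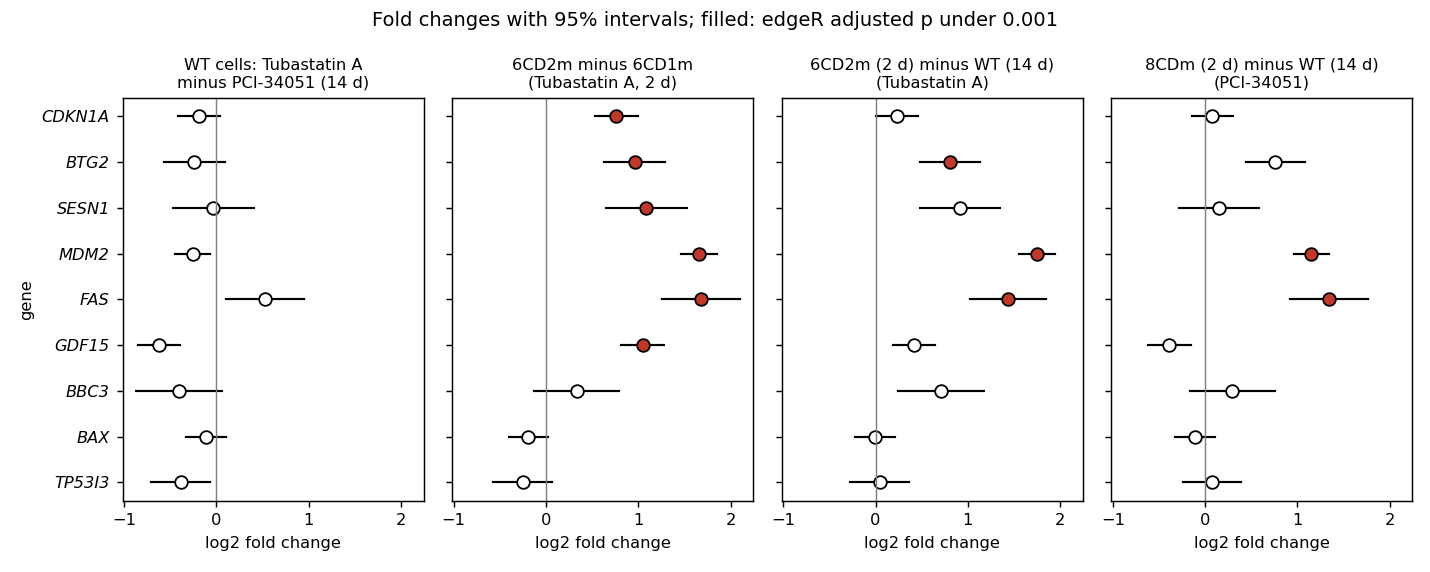
Log2 fold change of the 9 genes (circles) with 95% intervals (lines) in 4 comparisons; filled circles passed an edgeR adjusted p of 0.001. MDM2 and FAS are filled in the 3 comparisons with 6CD2m or 8CDm cells, while BAX and TP53I3 are open in all 4.

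The differences of 6CD2m and 8CDm cells from WT cells on their inhibitor were set against each other with an interaction term. Each of these differences joins line and duration, and they start from different WT levels. For 0 of the 9 genes did they differ at the 0.001 threshold by edgeR, where 5.16% of all genes did, while 3 had an unadjusted p under 0.05 and DESeq2 called 2. The largest terms were those of GDF15 (0.80 on the log2 scale, standard error 0.15, edgeR adjusted p = 0.0016), SESN1 (0.77, standard error 0.29, edgeR adjusted p = 0.074) and MDM2 (0.60, standard error 0.13, edgeR adjusted p = 0.0034). GDF15 and MDM2 passed the threshold in 6 of 11 alternative analyses each, among them DESeq2 (adjusted p = 3.9e-06 and 1.3e-06) and the fit without the 3 libraries that stand apart (edgeR adjusted p = 0.00026 and 0.00021). The intervals were wide for FAS (0.09, 95% interval -0.49 to 0.68) and narrower for CDKN1A (0.15, -0.17 to 0.47). With upper-quartile scaling in place of TMM the median of all genes in this term moved by 0.13, and the term of GDF15 was 0.93. For the median protein-coding gene of chromosome 6, which holds SESN1 and CDKN1A, the term was 0.29 with TMM.

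Compared directly, 6CD2m and 8CDm cells differed in 0 of the 9 genes by edgeR, where 9.96% of all genes differed, while 4 had an unadjusted p under 0.05 and DESeq2 called 1. The comparison shares its libraries with those above. MDM2 (0.34, edgeR adjusted p = 0.0091), FAS (0.62, edgeR adjusted p = 0.023) and SESN1 (0.73, edgeR adjusted p = 0.012) were higher in every 6CD2m library than in every 8CDm library, as were 25.4% of all genes. These 3 genes passed the threshold when only the 6 libraries were fitted (edgeR adjusted p = 7.4e-05, 1.6e-06 and 1.2e-06), and also without the 3 libraries that stand apart, none of which belongs to either group. CDKN1A had a log2 fold change of -0.03 (95% interval -0.26 to 0.19). SESN1 and CDKN1A lie on chromosome 6, whose median protein-coding gene was 0.43 higher in 6CD2m than in 8CDm cells.

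6CD1m cells were lower than 8CDm cells in 5 of the 9 genes and higher in 0, where 11.1% of all genes differed and 5.07% were lower. The libraries of the same 5 genes, MDM2, BTG2, FAS, GDF15 and CDKN1A, did not overlap, against 25.7% of all genes in this direction. MDM2 was lower by a log2 fold change of -1.31 (edgeR adjusted p = 6.1e-08) and CDKN1A by one of -0.80 (edgeR adjusted p = 4.6e-05), although the median gene of its chromosome was 0.36 higher. FAS (-1.06, edgeR adjusted p = 0.00078) did not pass the test without 5 of the 6 libraries in turn, all but replicate 3 of 6CD1m cells (edgeR adjusted p of up to 0.0045), nor with the replicate block (edgeR adjusted p = 0.0023). BBC3 was lower without the 3 libraries that stand apart (-0.71, edgeR adjusted p = 7.0e-05). In a fit of the 6 libraries alone 3 of the 5 passed, without FAS and GDF15, and in one that added the replicate block, which was tried after the data were seen, MDM2 alone passed. This comparison shares its 6CD1m libraries with that of the KDAC6 lines, and line and inhibitor changed together.

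Relative to WT cells on Tubastatin A, 6CD1m cells differed in 0 of the 9 genes by edgeR, where 0.793% of all genes differed, while 2 had an unadjusted p under 0.05. The WT libraries are those set against 6CD2m cells. GDF15 (log2 fold change -0.63, edgeR adjusted p = 0.0028) and CDKN1A (-0.53, edgeR adjusted p = 0.0079) were lower in every library, as were 17.2% of all genes, and DESeq2 called both (adjusted p = 6.3e-06 and 0.00019). Without the 3 libraries that stand apart GDF15 was called (-0.70, edgeR adjusted p = 0.00036). The median of all genes moved by 0.11 with upper-quartile scaling, which changed no call of the 9 genes here. MDM2 had a log2 fold change of 0.10 (95% interval -0.10 to 0.29), FAS of -0.25 (-0.67 to 0.18) and BTG2 of -0.15 (-0.48 to 0.18).

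WT cells kept for 14 days in either inhibitor differed in 0 of the 9 genes by edgeR, where 0.42% of all genes differed, while 4 had an unadjusted p under 0.05. Here the inhibitor and its dose changed and the line and duration did not. Of all genes 82 differed, and 27 with the replicate block, which pairs these libraries by their number. GDF15 was lower on Tubastatin A than on PCI-34051, with a log2 fold change of -0.62 (95% interval -0.85 to -0.39, edgeR adjusted p = 0.0033). It passed the 0.001 threshold with DESeq2 (adjusted p = 2.3e-06), as the 1 gene of the 9 that did, and when only these 6 libraries were fitted with their replicate numbers as a block (edgeR adjusted p = 2.0e-05), and also without the 3 libraries that stand apart (edgeR adjusted p = 0.00044), but its edgeR adjusted p was 0.013 with the block in the model of all libraries and at most 0.055 in any alternative. MDM2 (-0.26), BBC3 (-0.40) and TP53I3 (-0.39) were, like GDF15, lower on Tubastatin A without overlap, as were 12.1% of all genes, but had edgeR adjusted p of 0.079, 0.23 and 0.10. CDKN1A had a log2 fold change of -0.19 (95% interval -0.41 to 0.04), FAS of 0.53 (0.10 to 0.95) and SESN1 of -0.03 (-0.47 to 0.40).

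The mean of the 3 mutant groups was above the mean of the WT groups for 2 of the 9 genes, MDM2 (0.96, edgeR adjusted p = 1.8e-08) and FAS (0.93, edgeR adjusted p = 6.7e-05), where 10.4% of all genes differed and 3.35% were higher. For neither gene did mutant and WT libraries fall apart, since 6CD1m cells overlapped with WT cells. CDKN1A had a value of -0.10 (95% interval -0.25 to 0.04) and GDF15 of -0.30 (edgeR adjusted p = 0.0035). Without the 3 libraries that stand apart BTG2 (0.55, edgeR adjusted p = 5.6e-05) and SESN1 (0.52, edgeR adjusted p = 0.00023) were also higher and GDF15 was lower (-0.32, edgeR adjusted p = 0.00052).

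The fold changes of genes followed their GC content in most comparisons, and the 9 genes differ widely in it. MDM2 (41.4% GC over its annotated transcripts), SESN1 (41.2%) and FAS (42.1%) are poor in GC, BTG2 (51.1%) lies between, and TP53I3 (56.9%), CDKN1A (58.6%), GDF15 (60.2%), BAX (60.4%) and BBC3 (64.5%) are rich in it. Across 12087 protein-coding genes, which are not independent of each other, Spearman's rho between GC content and log2 fold change was -0.41 for 6CD2m against 6CD1m cells, -0.17 for 6CD2m and -0.53 for 8CDm against WT cells on the same inhibitor, and 0.43 for 6CD1m against 8CDm cells. It was -0.56 for WT cells on Tubastatin A against PCI-34051, 0.42 for 6CD1m against WT cells and 0.38 for the interaction. With offsets that remove a smooth curve of GC content from each library, 7 of the 9 genes were higher in 6CD2m than in 6CD1m cells, where 16.7% of all genes then differed. CDKN1A rose by 1.01 on the log2 scale in that analysis (edgeR adjusted p = 6.4e-05), MDM2 by 1.38, FAS by 1.45 and GDF15 by 1.33, and BBC3 by 0.76 (edgeR adjusted p = 9.9e-05). Relative to WT cells on Tubastatin A, 6 genes were then higher in 6CD2m cells (15.8% of all genes differed), with BBC3 at 0.87 (edgeR adjusted p = 2.8e-05).
For 8CDm against WT cells the offsets gave 4 higher genes (11.4% of all genes differed): MDM2 at 0.82, FAS at 1.05, BTG2 at 0.84 and BBC3 at 0.76. SESN1 was at -0.18 there (edgeR adjusted p = 0.32), and CDKN1A at 0.36 (edgeR adjusted p = 0.072). For 6CD1m against 8CDm cells 6 genes were lower (14.4% of all genes differed). BAX and TP53I3 passed the test in none of these 4 comparisons with the offsets. MDM2 and FAS passed the test both with and without the offsets in each of these 4 comparisons. Between the WT groups MDM2 alone of the 9 genes passed it with the offsets (-0.51, edgeR adjusted p = 0.00096), and GDF15 did not. In the interaction MDM2 and SESN1 passed it with the offsets, and GDF15 did not.

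**Figure D3:**
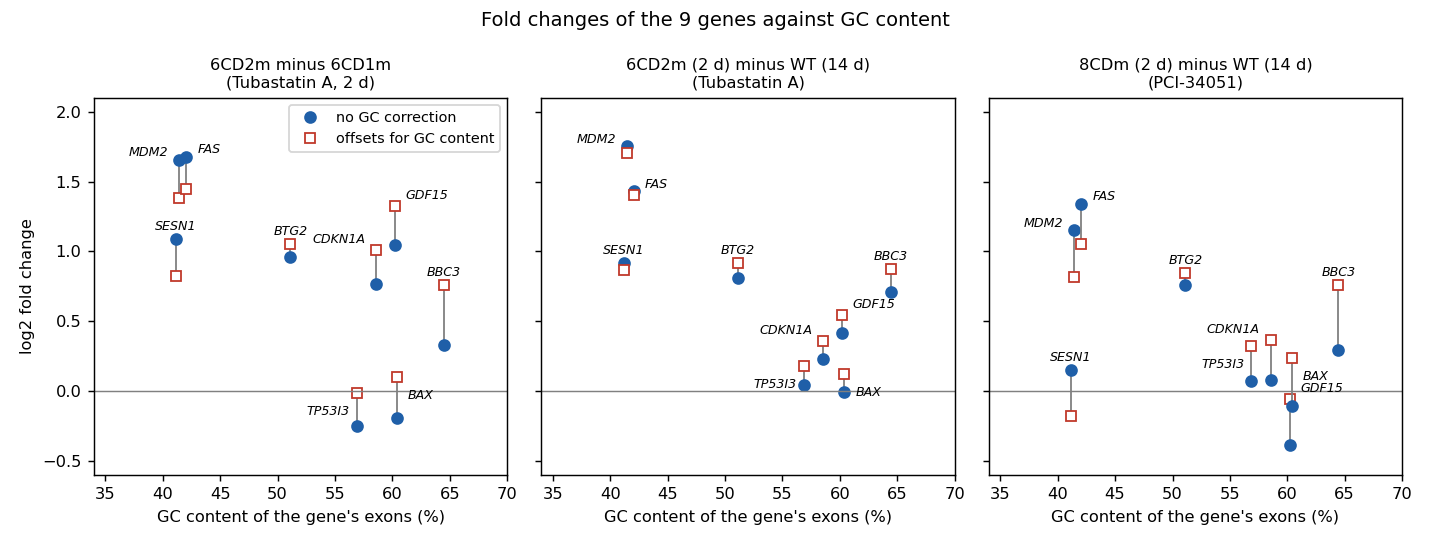
Log2 fold change of the 9 genes against the GC content of their annotated transcripts in percent (labelled as exons on the axis), without a correction (filled circles) and with offsets for GC content (open squares), in 3 comparisons. The offsets lowered MDM2 from 1.15 to 0.82 and raised BBC3 from 0.29 to 0.76 for 8CDm against WT cells.

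Several of the genes share exon sequence with a neighbour, and whether the reads were counted by strand is not given in the sources used here. FAS shares 380 bases with ACTA2 on the opposite strand, which lay between 8.92 and 43.3 CPM and also rose in 6CD2m relative to 6CD1m cells (log2 fold change 1.81, edgeR adjusted p = 2.1e-06). ACTA2 moved with FAS in 6CD2m against WT cells too (1.05, edgeR adjusted p = 0.00023) and in 6CD1m against 8CDm cells (-1.58, edgeR adjusted p = 8.4e-06), and had a log2 fold change of 0.84 in 8CDm against WT cells (edgeR adjusted p = 0.0015). MDM2 shares 133 bases with CPM, the carboxypeptidase M gene, on the opposite strand (at most 22.1 CPM), 785 bases with AC025423.4 on the opposite strand (at most 7.15 CPM) and 439 with the processed pseudogene AC025423.2 (at most 24.2 CPM), all far below the 238 CPM or more of MDM2. CPM rose with MDM2 in 6CD2m against 6CD1m cells (2.38, edgeR adjusted p = 0.00013) and in 6CD2m against WT cells (2.67, edgeR adjusted p = 4.5e-05), and AC025423.2 in 6CD2m against 6CD1m cells (2.38, edgeR adjusted p = 0.00062) and in 8CDm against WT cells (2.54, edgeR adjusted p = 0.00047). CDKN1A shares 146 bases with DINOL and SESN1 363 with AL390208.1 (at most 0.349 CPM). Without strand, reads of these parts cannot be told apart, and their share in the values was not tested.

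Over the 15 libraries, CDKN1A was most like FKBP15 (Pearson r of log2 CPM 0.963), PSAP (0.953), ATP6V0A2 (0.952), MIEF1 (0.952) and IRAK2 (0.948) among 14236 genes. The most opposite genes were PSMC3IP (-0.947), NOS1AP (-0.936), RP11-525G13.2 (-0.929), MDC1 (-0.913) and C2CD3 (-0.913). These values describe 15 libraries that share groups and base composition. Of the other 8 genes, GDF15 was most like CDKN1A (0.870, rank 84) and BTG2 next (0.789, rank 369), and BAX ran opposite (-0.583). MDM2 was closest to FAS (0.91) and BTG2 (0.90), and its r with CDKN1A was 0.62.

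Other genes of the pathway were counted from lists. Of 36 other p53 targets 34 could be tested, since TNFRSF10A and GLS2 had too few counts. In 6CD2m against 6CD1m cells 13 were higher and 1 lower, with a median of 0.47, where 6.65% of all genes were higher and 6.54% lower. The largest rises were RRM2B, a ribonucleotide reductase subunit (log2 fold change 1.65, edgeR adjusted p = 1.6e-05), TIGAR, a regulator of glycolysis (1.49, edgeR adjusted p = 0.00016), and ZMAT3, an RNA-binding protein (1.38, edgeR adjusted p = 8.1e-06). Relative to WT cells on the same inhibitor, 4 were higher and 2 lower in 6CD2m cells (median 0.35), where 4.61% of all genes were higher and 7.22% lower. In 8CDm cells 9 were higher and 1 lower (median 0.46), where 4.69% of all genes were higher and 6.27% lower. EDA2R, a receptor of the TNF family, rose by 0.83 and ZMAT3 by 0.81 in 6CD2m cells, where SPATA18 (-2.47) and PMAIP1 (-0.77) were lower. In 8CDm cells SPATA18 rose by 2.63, RRM2B by 1.30 and ACER2, a ceramidase, by 1.25. PERP was lower in 8CDm cells (-1.02, edgeR adjusted p = 8.4e-05). In 6CD1m against 8CDm cells 1 was higher and 16 were lower (5.99% and 5.07% of all genes), TP53INP1, an autophagy and stress gene, among them (-1.50, edgeR adjusted p = 3.5e-07). In the interaction of the differences from WT cells 3 were lower and 0 higher, where 2.65% of all genes were lower.

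Among regulators of the pathway, RCHY1, a ubiquitin ligase for p53 (1.12, edgeR adjusted p = 0.00039), was higher in 6CD2m than in 6CD1m cells and EP300, the acetyltransferase of p53 and histones, was lower (-0.89, edgeR adjusted p = 8.4e-07). EP300 had 91.0 ± 2.45 CPM (SD, n = 3) in 6CD2m cells and 169 ± 6.72 in 6CD1m cells. In 8CDm against WT cells RCHY1 (1.08) and the p53 phosphatase gene PPM1D (0.63, edgeR adjusted p = 0.00022) were higher.

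Of 20 genes known to be repressed by p21 through DREAM, those called between 6CD1m cells and another mutant line changed in the direction opposite to CDKN1A. Both of these comparisons share the 6CD1m libraries, and a role of p21 in any change of these genes was not tested. In 6CD2m against 6CD1m cells 12 were lower and 0 higher (median -0.77, where 6.54% of all genes were lower), led by CENPA (-1.59), CDC20 and PLK1 (both -1.40). In 6CD1m against 8CDm cells 11 were higher and 0 lower (median 0.77, where 5.99% of all genes were higher), led by E2F1 (1.43) and FOXM1 (1.23). Relative to WT cells on Tubastatin A, 16 were lower in 6CD2m cells (median -1.02, where 7.22% of all genes were lower). CDKN1A had a log2 fold change of 0.23 there and did not pass the test. In 8CDm against WT cells on PCI-34051 3 were lower (where 6.27% of all genes were), E2F1, CDC25A and FOXM1. These comparisons start from different WT levels. All 20 genes had a positive log2 fold change in WT cells on Tubastatin A against PCI-34051 (median 0.50), although 0 were called (0.42% of all genes). Compared directly, 6CD2m against 8CDm cells had a median of -0.17, with 3 lower and 0 higher, where 9.96% of all genes differed. Of the other CDK inhibitors, CDKN2C had 9.36 ± 1.52 CPM (SD, n = 3) in 6CD2m cells and 34.8 ± 1.05 in 6CD1m cells (-1.89, edgeR adjusted p = 8.8e-08), and CDKN2D was lower too (-1.61, edgeR adjusted p = 1.8e-05).

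Among 8 other genes known to respond to deacetylase inhibitors, 3 were higher and 1 lower in 6CD2m than in 6CD1m cells (6.65% and 6.54% of all genes). KLF4, a transcription factor that also activates CDKN1A, had 27.8 ± 0.581 CPM (SD, n = 3) in 6CD2m cells and 3.67 ± 1.03 in 6CD1m cells (log2 fold change 2.93, edgeR adjusted p = 4.9e-08). KLF4 had 3.63 CPM in 8CDm cells, where the mean of CDKN1A was highest (220 CPM). It had 4.54 CPM in WT cells on Tubastatin A and 5.85 on PCI-34051. A link between KLF4 and CDKN1A was not tested. In 6CD2m against 6CD1m cells TXNIP, an inhibitor of thioredoxin, rose by 1.77 and the metallothionein gene MT1X by 1.14, and MT2A was lower (-1.12). In 8CDm against WT cells 3 were higher and 3 lower (4.69% and 6.27% of all genes), with H1F0, the linker histone H1.0, at 1.29.

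**Figure D4:**
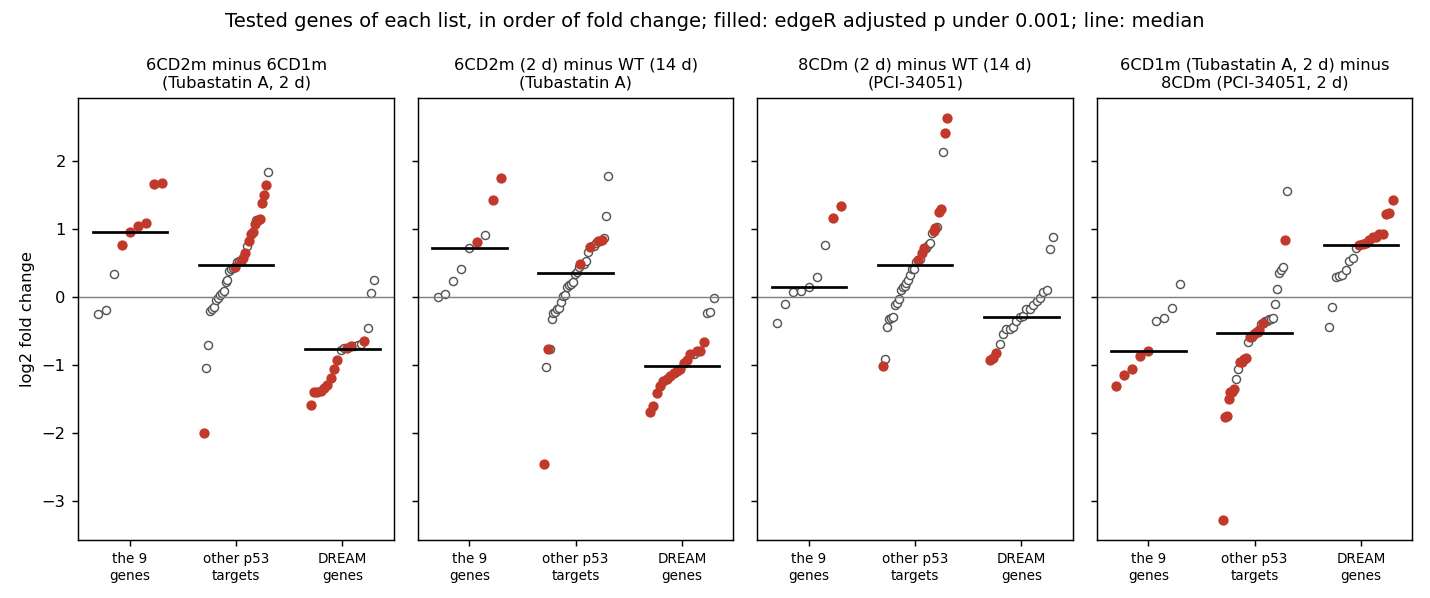
Log2 fold change of every tested gene among the 9 genes, the other p53 targets and the DREAM genes in 4 comparisons, in order within each set; filled points passed an edgeR adjusted p of 0.001 and the line is the set's median. The median of the 20 DREAM genes was -1.02 for 6CD2m against WT cells and -0.29 for 8CDm against WT cells, while that of the 9 genes was 0.71 and 0.15.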

How the data were processed

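Total RNA from 15 cultures of HT1080 cells was depleted of rRNA and sequenced. The submitters' processing notes name Trimmomatic 0.39, Bowtie2 2.4.5, RSEM 1.3.3 and DESeq2 1.38.2 with GRCh38; the gene annotation and the strand setting are not given in the sources used here. The deposited values are expected counts per gene, which the authors estimated with RSEM and did not normalize. Because 21.8% of the nonzero ones had decimals, they were rounded before testing.
Genes kept by edgeR's filter on low counts (19535 of 60675) were scaled by TMM and tested with edgeR's quasi-likelihood test (edgeR 4.0.16, limma 3.58.1, R 4.3.3) in 1 model of all 15 libraries with a mean per group. P-values were adjusted by the Benjamini-Hochberg method over all genes tested, and a gene was called at 0.001, the false discovery rate of the study. Group means carry the SD of 3 libraries. Positions, exon lengths and GC content come from GENCODE 29 (GRCh38), in which 57055 of the Ensembl identifiers were found. GC content was summed over all annotated transcripts of a gene, so an exon shared by several transcripts counts in each. CPM are relative to TMM-scaled library sizes, and r was computed on log2 CPM with a prior count of 2 among genes with an average log2 CPM of at least 1. The main edgeR fit was tested on simulated data for the comparison of 6CD2m with WT cells on Tubastatin A.
The 9 genes and the other lists were chosen with earlier results of these data known. Named genes are the 9, the 5 most like and 5 most opposite to CDKN1A, and from each list at most the 3 largest called changes in each direction per comparison with an average log2 CPM of at least 1. ACTA2 and the other overlapping genes were named for their position. Some items of the lists are not reported here.
Alternatives were DESeq2 1.42.0, scaling by upper quartiles, TMM after removal of mitochondrial and small structural RNAs, no low-count filter, at least 10 counts in every library, a threshold of 0.05, a minimum log2 fold change of 1 in either direction, only the groups compared, the replicate number as a block, offsets for GC content with or without the block, and leaving out each replicate. Leaving out 3 libraries together, and fitting only the groups compared with the block, were chosen after seeing the data. Same-numbered replicates of the WT groups deviated alike from their group means (r 0.505, 0.235 and 0.169), and these r were lower in every other comparison. For 6CD1m against WT cells they were -0.41, -0.09 and -0.26. Whether the numbers mark paired cultures was not tested.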

Additional observations from a re-analysis of the deposited data

Results flagged for a closer look

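GDF15 was above WT cells in every 6CD2m library and below WT cells in every 8CDm library, each on the same inhibitor as its WT cells. These comparisons start from different WT levels, with a mean of 341 CPM on Tubastatin A and 525 on PCI-34051. Compared directly, 6CD2m and 8CDm libraries overlapped in GDF15 (log2 fold change 0.18, edgeR adjusted p = 0.26). The interaction of the differences from WT cells, in which line and duration changed together, was 0.80 on the log2 scale (standard error 0.15). Its edgeR adjusted p of 0.0016 misses the threshold of 0.001. Of the 11 alternatives other than leaving out a single library, 6 passed it, and the adjusted p ran from 3.9e-06 to 0.020. No analysis with offsets for GC content was among the 6.
The same interaction passed the threshold for genes of the other lists, of which 9 are named by the rule of at most 3 per list and direction. It was -5.10 for SPATA18, a p53 target of mitochondrial quality control, which had 0.486 CPM in 6CD2m cells and 2.68 in their WT cells but 19.04 CPM in 8CDm cells and 3.06 in theirs (edgeR adjusted p = 1.3e-06). It was -1.29 for PMAIP1, which encodes the BH3-only protein NOXA (edgeR adjusted p = 4.0e-05), -0.83 for EP300 and -1.27 for CDKN2C. Among the DREAM genes it was -1.68 for BUB1, -1.52 for CENPA and -0.81 for MKI67. It was 3.30 for KLF4 and -1.56 for H1F0.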

How the results depend on the processing

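Counts of the 9 genes called changed with the settings, by gain or loss of calls, and no called gene reversed its direction. In the order of the report they were 6 for 6CD2m against 6CD1m, 3 and 2 for 6CD2m and 8CDm against WT cells on the same inhibitor, 0 for their interaction, 0 for 6CD2m and 5 for 6CD1m against 8CDm, 0 for 6CD1m against WT, 0 between the WT groups and 2 for the mutant against the WT mean. For 6CD2m against 6CD1m no alternative moved the count by over 1.5 times. Relative to WT cells, 6CD2m cells had 5 called genes with DESeq2, only the groups compared, GC offsets with the block or without the 3 libraries that stand apart, and 6 with GC offsets or at 0.05. For 8CDm against WT cells the count was 4 with GC offsets or at 0.05, 1 with only the groups compared and 0 when the block was added. For the interaction it was 2 with DESeq2, at least 10 counts, GC offsets, upper-quartile scaling, without the 3 libraries or at 0.05, and 1 with no filter, GC offsets with the block or only the groups compared. For 6CD2m against 8CDm it was 1 with DESeq2, at least 10 counts, upper-quartile scaling or GC offsets with the block, 2 with GC offsets, and 3 with only the groups compared, with or without the block, without the 3 libraries or at 0.05. For 6CD1m against 8CDm it was 3 with only the groups compared or a log2 fold change of at least 1, and 1 with the block and only the groups compared. For 6CD1m against WT it was 1 with no filter, GC offsets or without the 3 libraries, and 2 with DESeq2 or at 0.05. Between the WT groups it was 1 with DESeq2, no filter, GC offsets, only the groups compared with the block, without the 3 libraries or at 0.05. For the mutant mean it was 4 with DESeq2 or GC offsets, 5 without the 3 libraries or at 0.05, and 0 at a log2 fold change of at least 1.
With the replicate block in the model of all libraries the counts were 5, 2, 2, 0, 0, 4, 0, 0 and 2 in that order. Leaving out each replicate gave 4 to 6, 2 to 3, 1 to 3, 0, 0, 4 to 5, 0, 0 and 2 to 3. The 1 came without replicate 3 and the 3 without replicate 1 of WT cells on PCI-34051. The numbers of all genes called moved more, from 1088 to 4446 (2578 in the report) for 6CD2m against 6CD1m, from 1441 to 4494 (2310) and from 179 to 6128 (2140) for 6CD2m and 8CDm against WT cells, and from 1 to 2050 (82) between the WT groups. The cause of these shifts was not tested. Fitting only the groups compared gives no separate value for the mutant mean, which uses all 5 groups. Apart from the calls named in the report, the block in the model of all libraries changed no call of the 9 genes. With 3 libraries a group, small changes are mostly not detectable, so the open intervals of BAX and TP53I3 do not show equal levels.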
